A study of Mus musculus with 10 samples.

Results

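Pleiotrophin (*Ptn*) and midkine (*Mdk*) were followed with 4 of their receptors, *Ptprz1*, *Alk*, *Sdc1* and *Sdc4*, between the bud and the cap stage of the mouse first molar. The 6 genes are 6 of the 27528 genes with a value on all 10 arrays, and they were found by their Ensembl IDs. For 5 of them the ID stands in the study's table of genes that are expressed in the molar but for whose loss no effect on the tooth has been detected, and the ID of *Alk* (ENSMUSG00000055471) was given apart from it. The genes were selected on their roles and on their E14.5 minus E13.5 differences on these same arrays, which were known when the group was put together. The members' differences are therefore a description. No p-value is printed for them, and whether a member passed the threshold of the fit over all genes is given as a description too, not as support.

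Molar 1 tooth germs were dissected from NMRI mice, an outbred stock, at the embryonic days E13.5 (bud stage) or E14.5 (cap stage). The embryos were wild type and carried no treatment, and stage is the difference between the groups that the labels give. No dissection or scan date was used, so a batch that follows stage could not be told apart from it. Each array read RNA from a pool of germs, and 5 arrays were made per stage, numbered 1, 2, 4, 5 and 6. Each pool holds epithelium, mesenchyme and a little surrounding tissue. The number of arrays limits the precision, and spreads are those between pools. Signals are on the log2 scale, so a difference of 1 is a doubling. They depend on how well the probes of a gene bind, so a higher signal in 1 gene than in another does not mean more RNA. Comparisons between genes concern their changes and spreads. Where the signal of a dim gene is set beside the median of all genes, that is only a guide.

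Pleiotrophin and midkine are the only members of a family of small, secreted, cysteine-rich growth factors that bind heparan and chondroitin sulphate chains. *Ptprz1* encodes a receptor tyrosine phosphatase that carries chondroitin sulphate and whose activity is lowered when pleiotrophin binds. *Alk* encodes a receptor tyrosine kinase proposed as a receptor for both factors. *Sdc1* and *Sdc4* encode syndecan-1 and syndecan-4, membrane proteoglycans that hold such ligands at the cell surface. Syndecan-1 is known from the condensing mesenchyme around the tooth bud, and midkine from sites of epithelial-mesenchymal interaction.

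Both ligands and *Ptprz1* were lower at the cap stage, *Sdc4* was higher, and *Sdc1* and *Alk* lay close to their bud stage levels. In the fit over all genes (limma with Benjamini-Hochberg adjustment, E14.5 against E13.5), 4 of the 6 genes passed an adjusted p of 0.05, 3 lower and 1 higher. Of all genes, 7.85% passed, 4.36% higher and 3.49% lower at E14.5. Since the members were chosen with this contrast known, nothing is read from that count. In 3 of the 6 genes, *Mdk*, *Ptprz1* and *Sdc4*, all values of one stage lay beyond those of the other, against 8.84% of all genes. The median change of the 6 genes was -0.12 log2 units, beside -0.0145 over all genes.

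**Figure D1:**
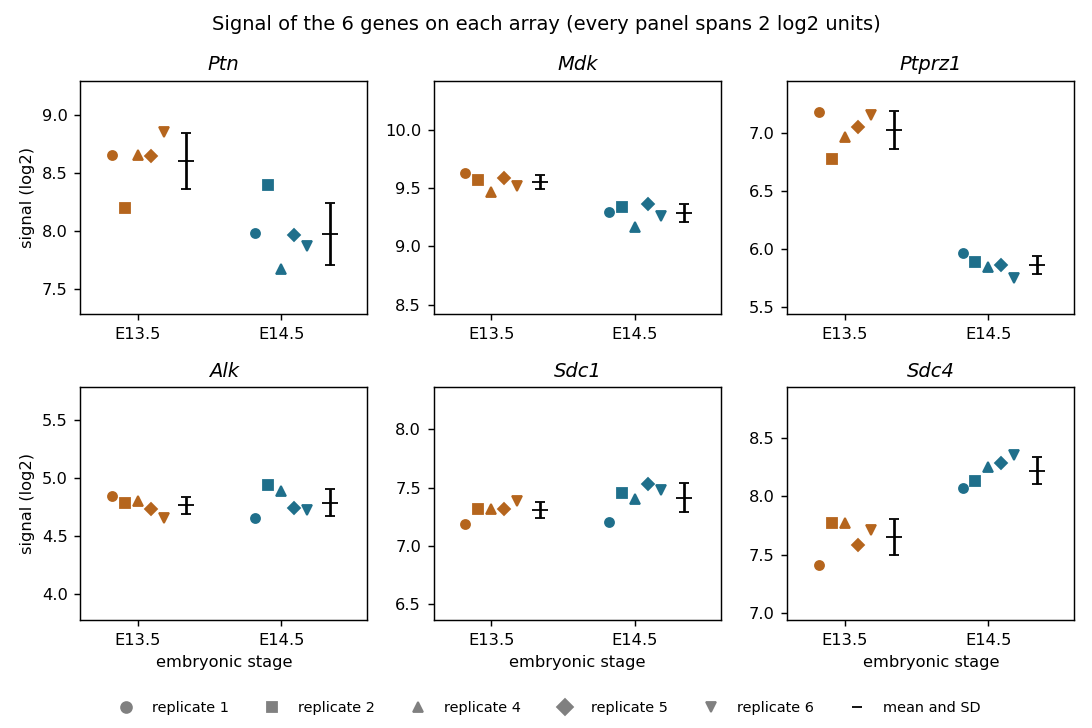
Signal of each gene (log2, vertical axis) on the 5 arrays of E13.5 and of E14.5 (horizontal axis). Each symbol is an array, shaped by replicate number, and black bars give the mean and SD. *Ptprz1*, *Mdk* and *Sdc4* are split by stage, *Ptn* overlaps through both arrays numbered 2, *Sdc1* overlaps through E14.5 replicate 1, and *Alk* overlaps widely.

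The sequences upstream of the genes with the largest changes, *Ptn*, *Ptprz1* and *Sdc4*, are shown first. They are the 250 bases before the transcript start in RefSeq (GRCm38.p6), 5′ to 3′ on the strand of the gene. *Ptn* lies at chr6:36810180-36810429 on the minus strand, *Ptprz1* at chr6:22875252-22875501 on the plus strand and *Sdc4* at chr2:164443189-164443438 on the minus strand. Capitals mark the GC box, GGGCGG or CCGCCC on the other strand.
Ptn: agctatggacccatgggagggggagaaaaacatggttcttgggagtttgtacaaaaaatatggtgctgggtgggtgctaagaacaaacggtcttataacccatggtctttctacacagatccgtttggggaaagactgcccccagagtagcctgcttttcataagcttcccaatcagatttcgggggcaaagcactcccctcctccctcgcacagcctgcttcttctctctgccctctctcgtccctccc
Ptprz1: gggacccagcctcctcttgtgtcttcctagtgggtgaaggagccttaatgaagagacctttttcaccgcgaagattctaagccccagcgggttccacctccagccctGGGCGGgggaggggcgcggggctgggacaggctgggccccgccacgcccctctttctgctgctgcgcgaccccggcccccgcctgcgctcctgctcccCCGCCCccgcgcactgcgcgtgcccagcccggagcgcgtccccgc
Sdc4: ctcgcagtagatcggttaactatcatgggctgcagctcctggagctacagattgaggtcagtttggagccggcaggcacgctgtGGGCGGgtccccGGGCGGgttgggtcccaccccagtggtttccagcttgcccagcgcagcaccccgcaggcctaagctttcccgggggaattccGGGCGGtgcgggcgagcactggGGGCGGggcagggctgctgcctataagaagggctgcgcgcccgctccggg
The GC box occurred 0 times upstream of *Ptn*, 2 times upstream of *Ptprz1* and 4 times upstream of *Sdc4*, and 32.7% of the 32851 promoters in the table hold at least 1. *Ptn* had 52% G and C, close to the table's median of 52.4%, whereas *Ptprz1* had 71.6% and *Sdc4* 68%. The TATA box (TATAAA), an Msx homeodomain core (TAATTG) and a Lef/Tcf core (CTTTGA), each searched on both strands, were found 0 times upstream of these 3 genes; 12.4%, 7.17% and 13.8% of promoters hold them. Only the exact letters were searched, so near matches, such as tataag upstream of *Sdc4*, were not counted. Of the 6 genes, 5 had an entry in the promoter table. *Sdc1*, which did not pass, held the GC box 3 times and had 66% G and C. *Alk*, which did not pass either, held it 1 time and had 65.2%. *Mdk* had no entry. Whether these motifs relate to the changes was not tested.

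Of the ligands, *Ptn* (ENSMUSG00000029838) read 8.66, 8.20, 8.65, 8.65 and 8.85 on the E13.5 replicates 1, 2, 4, 5 and 6. On the E14.5 replicates, in the same order, it read 7.98, 8.39, 7.67, 7.97 and 7.87. E13.5 replicate 2 was the lowest of its stage and E14.5 replicate 2 the highest of its own, and through these arrays alone the stages overlapped. The means were 8.60 ± 0.24 and 7.98 ± 0.26 (SD, n = 5), a change of -0.62 ± 0.14 (SE), which leaves 0.649 of the bud stage signal. Leaving out the low E13.5 array took the change to -0.72, and leaving out the high E14.5 array to -0.73. Among the arrays left out in turn, *Ptn* did not pass on removing replicate 5 of E13.5 (-0.61) or replicate 6 of E14.5 (-0.60). It was also the most variable of the 6 genes within a stage, with a residual SD of 0.253, larger than that of 82.9% of all genes.

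*Mdk* (ENSMUSG00000027239) read 9.63, 9.57, 9.47, 9.59 and 9.52 at E13.5, and 9.29, 9.34, 9.17, 9.37 and 9.26 at E14.5, with replicates in the same order. Every bud stage array lay above every cap stage array, though by a narrow gap. The means were 9.55 ± 0.06 and 9.29 ± 0.08 (SD, n = 5), a change of -0.27 ± 0.06 (SE), so 0.83 of the bud stage signal remained. Only 4.46% of all genes had a smaller residual SD than the 0.0709 of *Mdk*. The size of the change depended on scaling. It was -0.18 and did not pass after quantile normalization, and it did not pass when arrays were centred (-0.27) or scaled to 1 spread (-0.22), nor on removing replicate 5 of E13.5 or replicate 6 of E14.5 (-0.26 for each).

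Set against each other on the same array, where a shift of the whole array cancels, *Ptn* changed by 0.35 log2 units more than *Mdk* in the downward direction (-0.35 ± 0.15, SE). The stages overlapped in this difference. Both ligands were lower at the cap stage, and *Ptn* had the larger spread within a stage.

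Of the receptors, *Ptprz1* (ENSMUSG00000068748) had the largest change. It read 7.18, 6.78, 6.96, 7.05 and 7.15 at E13.5, and 5.97, 5.89, 5.85, 5.86 and 5.75 at E14.5. The lowest bud stage array, replicate 2, was still above the highest cap stage array, replicate 1. The means were 7.02 ± 0.16 and 5.86 ± 0.08 (SD, n = 5), a change of -1.16 ± 0.08 (SE), leaving 0.447 of the bud stage signal. Of all 27528 genes, 46 had a larger fall. E13.5 replicate 2 held the lowest bud stage value of both *Ptn* and *Ptprz1*, while *Mdk* was not low there.

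*Alk* read 4.85, 4.78, 4.81, 4.73 and 4.66 at E13.5, and 4.66, 4.93, 4.88, 4.74 and 4.72 at E14.5. Its signal was below the median of all genes on 10 of 10 arrays, and without detection calls it is not known to be above background. The stages overlapped over nearly their whole range, with a change of 0.0241 ± 0.0714 (SE). A change of *Alk* was not detectable at this signal.

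The syndecans differed from each other. *Sdc1* (ENSMUSG00000020592) read 7.19, 7.32, 7.32, 7.32 and 7.39 at E13.5, and 7.21, 7.45, 7.41, 7.53 and 7.48 at E14.5. Replicate 1 was lowest at both stages, and the other 4 cap stage arrays lay above all bud stage arrays. The means were 7.31 ± 0.07 and 7.41 ± 0.12 (SD, n = 5), a change of 0.11 ± 0.07 (SE) that did not pass.

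*Sdc4* (ENSMUSG00000017009) read 7.41, 7.77, 7.77, 7.58 and 7.71 at E13.5, and 8.07, 8.14, 8.25, 8.29 and 8.36 at E14.5. Every cap stage array was above every bud stage array. The means were 7.65 ± 0.15 and 8.22 ± 0.12 (SD, n = 5), a change of 0.57 ± 0.09 (SE) or 1.49-fold, and 410 genes had a larger rise. On the same array *Sdc1* minus *Sdc4* changed by -0.46 ± 0.06 (SE) without overlap of the stages.

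Lists of marker genes for the tissues of the germ were read beside the members. Of 7 dental epithelium markers, 6 rose, and their median on an array ran from 7.23 to 7.76 at E13.5 and from 7.94 to 8.34 at E14.5. Of 6 transcription factors of the dental mesenchyme, 5 fell (*Msx1*, *Pax9*, *Barx1*, *Lhx6* and *Lhx8*; *Runx2* did not pass), and their median ran from 8.52 to 8.93 and from 7.40 to 7.53. In pooled germs, fewer cells of a type and less RNA per cell cannot be told apart.

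Relative to the mesenchymal median on the same array, *Ptprz1* changed by 0.0990 ± 0.12 (SE) and its stages overlapped. Within E13.5, replicate 1 had the highest *Ptprz1* (7.18) and the lowest mesenchymal median (8.52). The SD there was 0.25 for the difference and 0.16 for *Ptprz1* alone. At E14.5, replicate 6 was lowest in both (5.75 and 7.40). The ligands changed less than the mesenchymal median did, *Ptn* by 0.64 ± 0.19 and *Mdk* by 0.99 ± 0.09 (SE) relative to it, with no overlap. Relative to the epithelial median, *Sdc4* changed by -0.0248 ± 0.11 (SE) with overlapping stages, and *Ptprz1* by -1.76 ± 0.16 (SE) without overlap. *Sdc1* changed by -0.49 ± 0.12 (SE) relative to the epithelial median, also without overlap. E13.5 replicate 1 was lowest of its stage in the epithelial median (7.23), *Sdc4* and *Sdc1*. At E14.5 the order differed, since replicate 1 had the highest epithelial median (8.34) and the lowest *Sdc4* and *Sdc1*. What these shifts contribute to the members' differences was not tested. These relative values were computed after the members' signals had been seen.

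**Figure D2:**
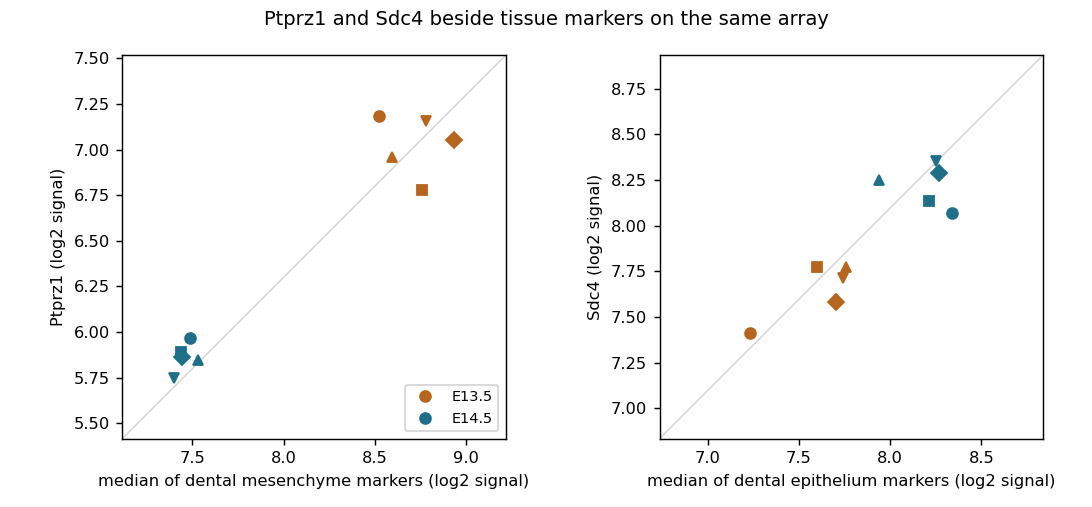
Left, *Ptprz1* against the median of 6 dental mesenchyme markers; right, *Sdc4* against the median of 7 dental epithelium markers, both axes in log2 signal, 1 symbol per array shaped by replicate as above. The grey line has a slope of 1; in both panels the step between stages lies close to that slope, with relative changes of 0.0990 and -0.0248.

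*Ptprz1* and *Ptn* are also known from glia, so a short list of nerve and glia genes was read. Of its 5 genes (*Bcan*, *Cspg5*, *Aqp4*, *Apc2* and *Tac1*), 0 passed in limma and 0 had an unadjusted p under 0.05. Their median ran from 5.16 to 5.37 at E13.5 and from 5.20 to 5.33 at E14.5. These signals were dim, close to the array medians over all genes (5.06 to 5.22). Without detection calls they are not known to be above background, so no conclusion on nerve or glia is drawn. Of the other lists, 1 of 4 endothelial genes rose, 2 of 6 stromal genes rose and 3 fell, and 7 of 9 enamel knot genes rose.

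Other binding proteins, proteoglycans and relays with an ID in the study's tables were listed and are called pathway genes for short. They were listed by the kind of protein they encode, and a link to the ligands was not tested for any of them. Of the 34, 33 were in the value table. *Sdc3*, which encodes another pleiotrophin receptor, was the gene without a value. Of the 33, 8 passed (4 higher, 4 lower), or 24.2% beside 7.85% of all genes, with a median change of 0.00929. The count depended on the arrays, with 4 to 8 passing when any 1 array was left out. It was 4 without replicate 5 of either stage, and 5 without replicate 1, 4 or 6 of E13.5 or replicate 2, 4 or 6 of E14.5. The share over all genes includes many dim genes. With only genes above the median signal kept, 2412 of 13764 genes passed, and 10 of the 32 pathway genes that remained. The list was also drawn from the study's own genes, so nothing about the pathway is read from these shares.

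Of 11 other binding proteins and surface or matrix proteoglycans, 3 rose and 2 fell, or 45.5% beside 7.85% of all genes. The limits given above for the whole list hold for this share too. *Cspg4*, the NG2 chondroitin sulphate proteoglycan, rose from 6.14 ± 0.07 to 6.76 ± 0.11 (SD, n = 5; limma adjusted p = 0.000208). *Notch2*, a receptor to which midkine has been reported to bind, rose by 0.36 ± 0.07 (SE, limma adjusted p = 0.00771). *Tnc* encodes tenascin-C, a matrix partner of *Ptprz1*, and its signal dropped by 0.52 ± 0.10 (SE, limma adjusted p = 0.0069). These 3 passed under each of the 17 alternatives.

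The remaining calls were weaker. *Dcn*, encoding the small proteoglycan decorin, rose by 0.41 ± 0.11 (SE, limma adjusted p = 0.036, between 0.0139 and 0.0933 in the alternatives), and lost the call without replicate 1, 2 or 5 of E13.5 or replicate 1, 2, 4 or 5 of E14.5, among the arrays left out in turn, with changes down to 0.34. *Tgfbr3*, encoding betaglycan, changed by -0.23 ± 0.06 (SE, limma adjusted p = 0.0445, between 0.0179 and 0.113), and lost it without any 1 of the 10 arrays, with changes from -0.25 to -0.20, and under each of the 3 array scalings. *Gpc2*, a glypican that binds midkine (-0.31 ± 0.14), *Gpc1* (0.31 ± 0.12) and *Lrp6*, a Wnt co-receptor (-0.14 ± 0.07, SE for each), did not pass, nor did *Cspg5*, *Bcan* and *Spock1*.

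Of 22 intracellular relays of receptor tyrosine phosphorylation, 3 passed, or 13.6% beside 7.85% of all genes. Of genes above the median signal, 2412 of 13764 passed, so nothing is read from the share of the relays. *Gab1*, a docking protein, fell from 8.63 ± 0.16 to 8.03 ± 0.09 (SD, n = 5; limma adjusted p = 0.000906) and passed under each alternative. *Jak2*, a cytoplasmic kinase, changed by -0.28 ± 0.07 (SE, limma adjusted p = 0.0355, between 0.00596 and 0.107). It lost the call without replicate 1, 4, 5 or 6 of E13.5 or replicate 4, 5 or 6 of E14.5, with changes from -0.28 to -0.25, and with arrays centred on their medians (limma adjusted p = 0.107). *Pik3r2*, a regulatory subunit of PI 3-kinase, changed by 0.35 ± 0.09 (SE, limma adjusted p = 0.0399, between 0.00391 and 0.115), and lost the call without replicate 1, 4, 5 or 6 of E13.5 or replicate 2, 5 or 6 of E14.5, with changes from 0.29 to 0.37, and with arrays centred (limma adjusted p = 0.0649). *Ctnnb1*, encoding beta-catenin, a substrate of *Ptprz1*, changed by 0.10 ± 0.06 (SE) and did not pass.

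**Figure D3:**
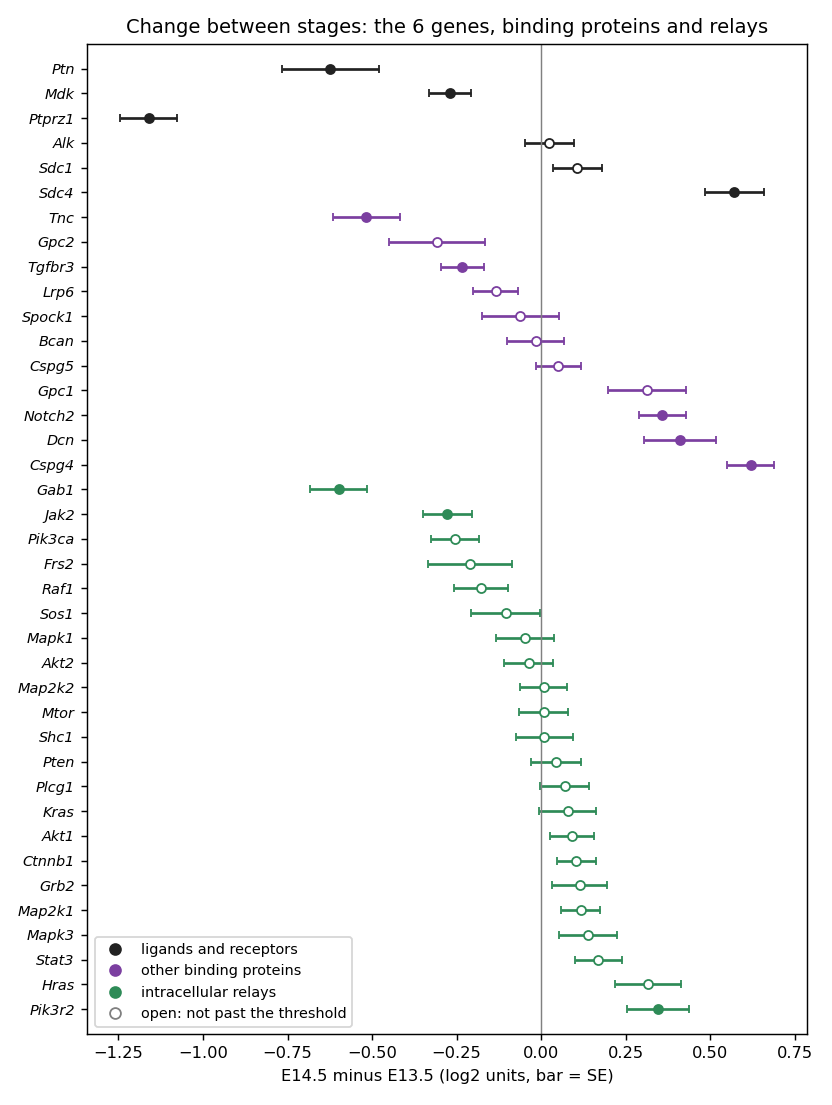
Change from E13.5 to E14.5 (log2 units, horizontal axis) for the 6 genes, 11 other binding proteins and 22 intracellular relays; bars are SE, filled points passed a limma adjusted p of 0.05 and open points did not. *Ptprz1* lies farthest to the left at -1.16, while *Cspg4* and *Sdc4* lie farthest to the right at 0.62 and 0.57.

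Of the 93 other genes in the study's table of dispensable genes, 34 passed, 23 higher and 11 lower. That is 36.6% of them, beside 7.85% of all genes. The share over all genes includes many dim genes, while this list was compiled from genes expressed in the molar. Of genes above the median signal, 2412 of 13764 passed. Nothing about dispensable genes is read from these shares. Some of the 93 were already counted among the binding proteins: *Cspg4*, *Tnc* and *Dcn*, which passed, and *Gpc1*, *Gpc2*, *Cspg5*, *Bcan* and *Spock1*, which did not. Among the 395 other genes with a symbol, those with the profile over the 10 arrays most like *Ptprz1* were *Pdgfra*, *Epha7* and *Lhx6*. Their root mean square differences from it, after each gene was centred on its mean, were 0.103, 0.124 and 0.130 log2 units. *Sdc4* was nearest to *Fzd5* (0.0831), *Cspg4* (0.0879) and *Notch1* (0.0891), and *Mdk* to *Tgfbr2* (0.0587), *Evc* (0.0668) and *Rab23* (0.0711). Genes with no symbol at hand were nearer still, 4 of them to *Ptprz1* than *Pdgfra* was. For *Sdc4*, 16 were nearer than *Fzd5*, and for *Mdk*, 17 were nearer than *Tgfbr2*.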

How the data were processed

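RNA from 10 pools of molar 1 germs was read on Affymetrix Mouse Exon 1.0 arrays, 1 sample per array. Normalization by the authors was done in aroma.affymetrix with probes regrouped by Ensembl gene. The deposited table holds a signal for each gene on each array, taken here to be log2 from its range (1.30 to 12.83, medians of arrays 5.06 to 5.22). The log base, background correction and summary model are not stated. No scanner file, detection call or scan date was used. Across genes, arrays correlated by 0.975 to 0.994 within a stage and by 0.962 to 0.987 across stages.

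The stage comparison, two-sided and without covariates, used all 10 arrays and the lmFit and eBayes functions of limma 3.58.1 (R 4.3.3), adjusted over all 27528 genes. The fit was first tested on simulated data. SEs of single-gene changes come from limma, which also draws on the variance of all genes. SEs of changes relative to another gene or a marker median come only from the SDs of that difference, so the SEs are not alike. Symbols are those paired with an ID in the study's gene lists (399 genes, 395 with values). Named are the 6 members, the binding genes past the threshold, up to 4 relays past it, the 3 genes nearest to each member whose stages do not overlap, and markers where their list is discussed. *Gpc1*, *Gpc2*, *Lrp6*, *Cspg5*, *Bcan*, *Spock1* and *Ctnnb1* were named after their values were seen. Members and lists were chosen with earlier results of these data known. Alternatives were 3 array scalings, array weights, another variance model, a replicate block, a filter on dim genes and each array left out.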

Additional observations from a re-analysis of the deposited data

Results flagged for a closer look

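Among the 6 members, the other pathway genes that passed and the genes nearest to a member, 44 sets of 5 arrays from 1 stage were searched for an array far from the rest, meaning a gap to its neighbour above 0.71 of the set's range. About 1 set in 20 does so by chance, and 2 sets did. At E13.5, *Epha7* reached 9.73 in replicate 5 while the remaining arrays lay between 9.34 and 9.45. *Lhx6* was low in replicate 4 of E13.5, at 7.999, with the remaining arrays between 8.14 and 8.17. Both are genes with profiles like that of *Ptprz1*. None of the 12 sets of the members themselves passed that limit, and the closest was *Ptn* at E13.5, where the gap of replicate 2 was 0.693 of the range.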

How the results depend on the processing

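As a description of genes selected on this contrast, *Ptprz1* (-1.22 to -1.12) and *Sdc4* (0.51 to 0.62) passed in 17 of 17 alternatives, while *Sdc1* (0.0779 to 0.16) passed in 0 of 17 and *Alk* (-0.0125 to 0.0564) in 0 of 16; the filter on dim genes leaves out *Alk*. *Ptn* (-0.73 to -0.55) passed in 14 and *Mdk* (-0.29 to -0.18) in 12. Quantile normalization moved *Mdk* most, to -0.18. With 1 array left out, 2 to 4 of the 6 members passed; only *Ptprz1* and *Sdc4* did without E13.5 replicate 5 or E14.5 replicate 6. Over all genes 2162 passed, 3911 with array weights, 5155 at an unadjusted p under 0.05, and 1479 to 2554 with 1 array left out. Of the 33 other pathway genes 8 passed, 5 with arrays centred on their medians, 12 with array weights and 4 to 8 with 1 array left out. The cause was not tested. The replicate block gave 2077 genes in all, 3 of the 6 members (*Ptn* did not pass) and 5 of the other pathway genes (*Dcn*, *Jak2* and *Tgfbr3* did not pass, with limma adjusted p of 0.0832, 0.0734 and 0.0818). The labels do not say whether arrays of the same number belong together. Deviations of same-numbered arrays correlated by -0.0792 to 0.51 over the 5 pairs, beside -0.57 to 0.42 over the 20 differently numbered pairs. Of the 5 E13.5 arrays, 2 correlated best with their own number. With so few pairs, these values cannot decide whether the numbers pair the samples. Over the 8 other pathway genes that passed, 97 alternatives kept the call, 39 lost it and 0 reversed the direction.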
